A study of Mus musculus with 5 samples.

Results

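Hand2, Osr2, Osr1, Moxd1, Tbx2, Tbx3, Msx1, Msx2, Twist1 and Nr2f2 were followed in newborn mouse ovaries that lack Lhx8, a LIM homeobox gene of oocytes. The 10 genes were grouped as genes known from the mesenchyme of the genital tract, and they were selected on differences between Lhx8 null and wild type arrays that were measured in these same samples. Their group differences are therefore a description and carry no test. Every probe set whose single gene symbol was a member was used, which gave 24 of 34945 probe sets with 1 symbol and 10 of 18193 genes. RNA was measured on 5 oligonucleotide arrays, 3 of Lhx8 null ovaries (replicates 1, 2 and 3) and 2 of wild type ovaries (replicates 2 and 3). Each array held a pool of 50 ovaries from at least 25 females at postnatal day 0.5, and both groups shared the background named C57/BL6/129SVEV Hybrid. The labels do not describe the null allele, and pools rather than single animals were the replicates, so nothing is known of the spread between animals. No agent was given to either group.

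HAND2 and TWIST1 are basic helix-loop-helix transcription factors, which bind short DNA motifs called E-boxes as dimers. HAND2 is known in the uterus as a factor of the stroma that acts downstream of the progesterone receptor and represses fibroblast growth factor genes, and NR2F2, an orphan nuclear receptor also called COUP-TFII, acts there downstream of Indian hedgehog. OSR1 and OSR2 are zinc finger factors of the intermediate mesoderm and its derivatives, TBX2 and TBX3 are T-box repressors, and MSX1 and MSX2 are homeobox factors often induced by BMP signals. MOXD1 is a monooxygenase-like protein related to dopamine beta-hydroxylase and is the member that encodes no transcription factor.

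Promoter sequences of 6 members, Hand2, Moxd1, Msx1, Msx2, Twist1 and Nr2f2, were found in the RefSeq table (build GRCm38.p6). Hand2 had the largest difference of the members by the brightest probe set, and Moxd1 by the mean over probe sets. Msx1 and Msx2 are paralogues, with log2 differences of 1.92 and 1.66. For Hand2, Moxd1, Msx1 and Msx2 the 250 bases upstream of the start are shown. They lie at chr8:57320733-57320982 (plus strand, Hand2), chr10:24223267-24223516 (plus strand, Moxd1), chr5:37824586-37824835 (minus strand, Msx1) and chr13:53472781-53473030 (minus strand, Msx2). Each is written 5′ to 3′ on the strand of its gene. Capitals mark E-boxes, the letters CANNTG, and the homeodomain cores TAATTA and TAATTG, searched on both strands, so that the core TAATTG also appears as CAATTA.
Hand2: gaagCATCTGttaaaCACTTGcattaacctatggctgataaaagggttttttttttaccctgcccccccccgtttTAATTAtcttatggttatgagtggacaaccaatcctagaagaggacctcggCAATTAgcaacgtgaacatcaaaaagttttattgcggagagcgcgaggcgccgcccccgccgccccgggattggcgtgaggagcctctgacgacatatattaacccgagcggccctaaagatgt
Moxd1: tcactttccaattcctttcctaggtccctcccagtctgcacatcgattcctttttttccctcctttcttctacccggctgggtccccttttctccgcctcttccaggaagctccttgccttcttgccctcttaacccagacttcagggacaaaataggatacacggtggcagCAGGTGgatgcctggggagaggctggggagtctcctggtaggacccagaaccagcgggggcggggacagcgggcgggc
Msx1: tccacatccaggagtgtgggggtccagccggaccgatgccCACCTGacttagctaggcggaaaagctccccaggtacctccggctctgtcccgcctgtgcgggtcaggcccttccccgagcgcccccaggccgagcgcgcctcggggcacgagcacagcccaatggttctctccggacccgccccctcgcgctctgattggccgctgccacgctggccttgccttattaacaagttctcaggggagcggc
Msx2: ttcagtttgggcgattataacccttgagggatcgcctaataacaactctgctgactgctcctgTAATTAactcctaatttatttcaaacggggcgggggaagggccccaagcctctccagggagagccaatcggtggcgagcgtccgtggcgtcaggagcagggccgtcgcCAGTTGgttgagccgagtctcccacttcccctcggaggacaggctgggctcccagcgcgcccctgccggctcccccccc
The Hand2 window held 2 E-boxes, whose first bases lay 246 and 235 bases before the start, and 2 homeodomain cores, 175 and 124 bases before it. The Msx2 window held 1 E-box (79 bases before the start) and 1 homeodomain core (187 bases before it), and the Moxd1 and Msx1 windows held 1 E-box each, 78 and 210 bases before the start. The Nr2f2 window held 1 E-box, 161 bases before the start, and the Twist1 window held neither motif. Over the 6 members, 5 windows held an E-box and 2 a homeodomain core. Among 32851 RefSeq promoter windows of the same length, 66.2% held an E-box and 11.3% a homeodomain core. The nuclear receptor core AGGTCA (14.0% of all windows) and the T-box core AGGTGTGA (1.12%) were in none of the 6 windows. No marked E-box overlapped a marked homeodomain core. These matches describe letters in a window and no binding was measured.

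Lhx8 itself had signals of 332.6, 159 and 347.4 on null replicates 1, 2 and 3 and of 6450.1 and 5223.1 on wild type replicates 2 and 3, so the arrays followed their labels. The deposited medians, on the log2(signal + 16) scale, were 7.00 to 7.18 on null and 6.80 to 6.83 on wild type arrays, and arrays were quantile normalised before differences were taken. The hybridisation control BioC had a mean signal on null arrays that was 2.12 times its wild type mean, and for the 18S ribosomal probe sets this ratio was 1.90. The 18S mean was 570 on null replicate 1, 303 and 307 on null replicates 2 and 3, and 207 and 208 on wild type replicates 2 and 3. The 3' to 5' signal ratio of Actb, which reflects RNA integrity, ran from 1.48 to 1.69 on null and 1.39 to 1.43 on wild type arrays. For Gapdh the same ratio was 0.658 to 0.802 on null and 0.625 to 0.666 on wild type arrays, so the groups overlapped. The medians, BioC, 18S and Actb values moved with the groups for every result below, and their part in the results was not tested. In a fit across all genes with limma, 10916 genes were bright enough to be tested, 25.6% were called higher and 22.3% lower in null ovaries at an adjusted p below 0.05, and the median log2 difference was 0.04. With arrays centred on their medians instead, that median was -0.18 and 1720 genes were higher against 3422 lower, where quantile normalisation gave 2791 against 2429. Without wild type replicate 3 these counts were 1846 and 1543.

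The brightest probe sets of all 10 members were higher on every null array than on either wild type array, where 36% of the tested genes were higher on every null array and 31.8% lower. Of the 10, 9 were called higher and none lower, beside the 25.6% and 22.3% of all tested genes. Because the members were selected on this contrast, nothing is read from that count. The count was 8 without null replicate 1 and without wild type replicate 3, and 10 without null replicate 2 or with the deposited scaling. Their log2 differences ran from 0.64 to 4.88 with a median of 1.71. In 4 of the members, Hand2, Osr2, Msx2 and Twist1, the mean wild type level was below the brightness cutoff of 7.37 (a signal of about 150), so these passed the filter through the null arrays. At the level of probe sets, 14 of 24 were called higher and none lower in a fit over all 34945 probe sets without a brightness filter, in which 11.9% were higher and 12.9% lower. Without wild type replicate 3 the count was 10.

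**Figure D1:**
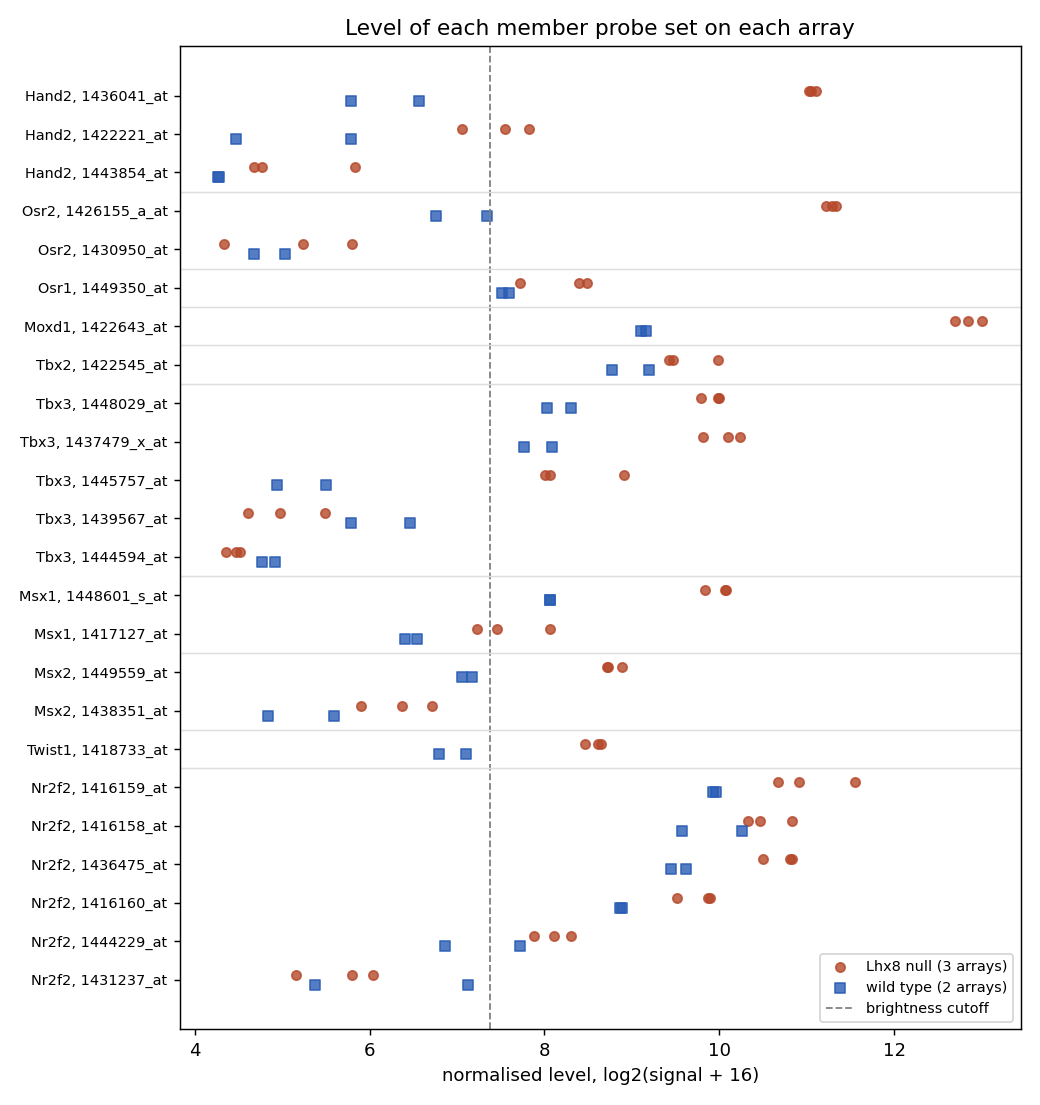
Normalised level, log2(signal + 16), of each of the 24 member probe sets on each array. Circles are the 3 Lhx8 null arrays, squares the 2 wild type arrays and the dashed line the brightness cutoff of 7.37. The brightest probe set of each gene, listed at the top of its block, has every circle to the right of both squares, while 9 probe sets have mean levels below the cutoff.

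Hand2 was below the brightness cutoff in wild type ovaries and well above it in null ovaries. Its brightest probe set, 1436041_at, had signals of 2036.4, 2143.2 and 2052.2 on the null arrays and of 33.7 and 70.5 on the wild type arrays. The null arrays lay close together, at 2077 ± 57.6 (SD, n = 3), while the wild type mean was 52.1 ± 26 (SD, n = 2). The log2 difference was 4.88 (SE 0.23), the rank 2 among all 10916 tested genes. A dimmer Hand2 probe set, 1422221_at, had 139.1, 213.6 and 176.3 in null against 34.1 and 5.7 in wild type ovaries, a log2 difference of 2.35 (SE 0.47). The dimmest, 1443854_at, did not exceed 43.5 on any array. Both wild type values of the brightest probe set lie below the brightness cutoff, so the size of the difference depends on the added constant, and it was 4.16 with 64 in place of 16. The mean over the 3 Hand2 probe sets differed by 2.68, below the 3.71 of Moxd1, and its level was then too dim to be tested.

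Osr2 and Moxd1 were the other members with differences above 3. Osr2 (1426155_a_at) had signals of 2411.7, 2549.1 and 2354.5 in null and of 81.2 and 132.3 in wild type ovaries. The lowest null array was far above both wild type arrays, with a ratio of mean signals of 22.8 and a log2 difference of 4.23 (SE 0.19). Its other probe set, 1430950_at, reached at most 42.4 on any array, and its groups overlapped. Both wild type signals of the brighter probe set lie below the cutoff, and its difference was 3.80 with 64 in place of 16 and 2.25 with both probe sets averaged. Moxd1 was well above the cutoff in wild type ovaries as well, with 557.4 and 523.8 there and 6492.7, 8656.3 and 7645.7 in null ovaries. The wild type mean was 541 ± 23.8 (SD, n = 2), the null mean 7598 ± 1083 (SD, n = 3) and the log2 difference was 3.71 (SE 0.12). Unlike Hand2 and Osr2, Moxd1 moved little with the added constant, to 3.60 with 64 in place of 16. Among the 10916 tested genes, the difference of Osr2 had rank 5 and that of Moxd1 rank 10, where the rank of Osr2 rests on those dim wild type signals.

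Osr1 and Tbx2 had the smallest differences among the members, and their paralogues Osr2 and Tbx3 had larger ones. Osr1 had signals of 364.8, 197.9 and 322.8 in null and of 161.8 and 151.5 in wild type ovaries, a log2 difference of 0.65 (SE 0.28). The lowest null array stood only just above the wild type arrays, and Osr1 was the member not called. It was called with the deposited scaling, at 0.81, and without null replicate 2, at 0.89. Tbx2 had 994.8, 664.7 and 688.2 in null and 575.1 and 408.4 in wild type ovaries, with a log2 difference of 0.64 (SE 0.22). Its call was lost without null replicate 1, without wild type replicate 3, without the brightness filter, and with arrays centred on their medians, where the difference was 0.40. Tbx3 (1448029_at) had 999.2, 855.8 and 984.2 in null against 291 and 227.9 in wild type ovaries. The groups were far apart relative to their spread, at 946 ± 78.8 (SD, n = 3) and 259 ± 44.6 (SD, n = 2), and the log2 difference was 1.75 (SE 0.16). Whether Osr2 and Osr1, or Tbx3 and Tbx2, differed from each other in their change was not tested.

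The 5 probe sets of Tbx3 did not all follow. That of 1437479_x_at was close to the brightest, at a log2 difference of 2.12 (SE 0.19). The probe set 1445757_at, with 479.4, 243.1 and 255.1 in null and 24.9 and 12.3 in wild type ovaries, gave the largest Tbx3 difference, 3.10 (SE 0.38). The remaining pair were lower on every null array than on either wild type array, with log2 differences of -1.10 (SE 0.41) for 1439567_at and -0.40 (SE 0.30) for 1444594_at. Their highest signals were 63.2 and 11.9, both dimmer than the cutoff, and neither was called. Among the tested genes, 31.8% were lower on every null array at their brightest probe set. The mean over the 5 probe sets differed by 1.10.

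Both MSX genes and Twist1 had log2 differences between 1.63 and 1.92. Msx1 (1448601_s_at) had signals of 897.2, 1042.2 and 1035.4 in null and of 240.2 and 233.4 in wild type ovaries, a log2 difference of 1.92 (SE 0.15). Msx2 (1449559_at) had 422, 453.3 and 408.2 against 114 and 105.5, with 1.66 (SE 0.20). Twist1 had 360.4, 383.3 and 376.4 against 107.5 and 84.7, with 1.63 (SE 0.22). In all 3 genes the null arrays were tightly grouped, and the lowest null signal was over 2 times the highest wild type signal, as it was in Hand2, Osr2, Moxd1 and Tbx3 too. The dimmer probe sets, 1417127_at of Msx1 and 1438351_at of Msx2, gave 1.11 (SE 0.33) and 1.11 (SE 0.42) in the same direction. Msx2 and Twist1 had wild type signals below the cutoff, and with 64 in place of 16 their differences were 1.38 and 1.32.

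Nr2f2 was bright in both groups and changed by about 2-fold at its brightest probe set. The brightest of its 6 probe sets, 1416159_at, had signals of 2901.6, 1584.5 and 1874.2 in null and of 1004.6 and 963 in wild type ovaries, a log2 difference of 1.10 (SE 0.24). Null replicate 1 stood above the other null arrays at this probe set, and without it the difference was 0.86. At 1436475_at, where null replicate 1 was instead the lowest of the null arrays, the difference was 1.18 (SE 0.15). The probe sets 1416160_at, 1444229_at and 1416158_at gave 0.89 (SE 0.16), 0.80 (SE 0.31) and 0.62 (SE 0.23). All 5 had every null array above both wild type arrays, as 36% of the tested genes had at their brightest probe set. That share was not counted over all probe sets. The dim probe set 1431237_at, at most 111.4 on any array, had overlapping groups and a value of -0.59 (SE 0.56). It was not called, and neither were 1416158_at and 1444229_at. The mean over the 6 probe sets differed by 0.67, and the brightest probe set by 0.80 with arrays centred on their medians.

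**Figure D2:**
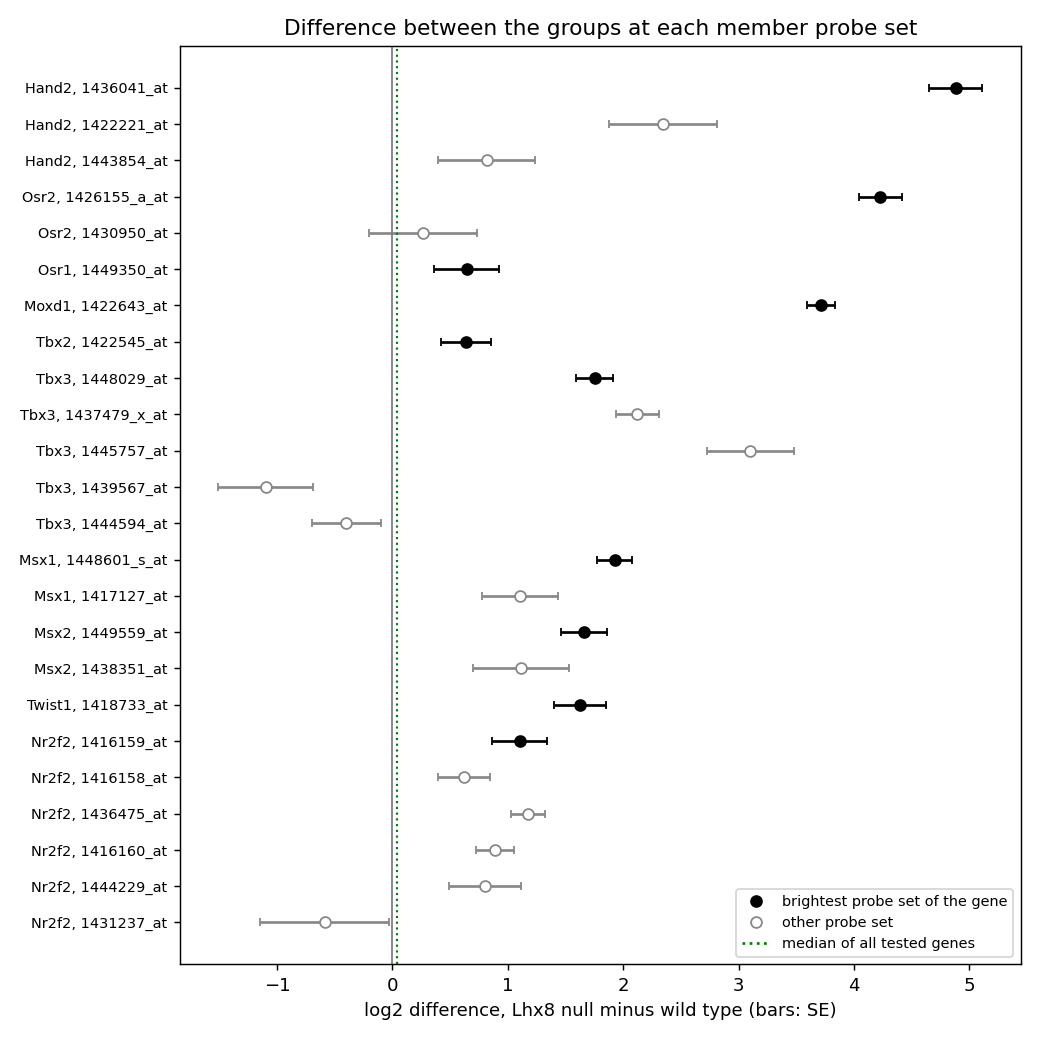
Log2 difference, Lhx8 null minus wild type, for each member probe set, with bars of 1 SE from the fit over all probe sets. Filled points are the brightest probe set of each gene, open points the others, and the dotted line is the median of all tested genes, 0.04. Hand2, Osr2 and Moxd1 lie above 3 at their brightest probe set, and the 3 values below 0 belong to dim probe sets of Tbx3 and Nr2f2.

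Within the groups the members fell into different orders. In deposited signals of the brightest probe sets, null replicate 2 was the highest null array for 6 members (Hand2, Osr2, Moxd1, Msx1, Msx2 and Twist1) and the lowest for the other 4 (Osr1, Tbx2, Tbx3 and Nr2f2), for which null replicate 1 was the highest. Among wild type arrays, replicate 3 was below replicate 2 for 8 members and above it for Hand2 and Osr2. With 2 to 3 arrays a group these orders are descriptions of the arrays. Likeness over the 5 arrays was measured as the Euclidean distance between log2 levels centred on each gene's mean. The closest member pair was Msx2 and Twist1, at 0.18, followed by Tbx3 and Twist1 at 0.30 and Tbx3 and Msx2 at 0.33. Osr1 and Tbx2 were 0.52 apart, Hand2 and Osr2 0.73, and the most distant pair was Hand2 and Tbx2, at 4.75. This distance includes the size of the group difference.

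Among all tested genes, those nearest to Hand2 by the same distance were Plet1 (0.68), Osr2 (0.73), Wfdc2 (0.86), Ovgp1 (0.88) and Hoxa10 (1.2). Nearest to Osr2 were Plet1 (0.29), Ovgp1 (0.51), Hoxa10 (0.62), Rsph3a (0.63) and Hand2 (0.73). Plet1 had signals of 2443, 2508.9 and 2294.9 in null and of 81.6 and 102 in wild type ovaries, which sat close to those of Osr2 on each array relative to their own means. Without wild type replicate 2, 2 of the 5 neighbours were shared for either gene, and without wild type replicate 3, 4 for Hand2 and 2 for Osr2.

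Genes of the pathways in which the members act were read from 6 lists. The lists were written with earlier results of these data known, so their counts and medians are descriptions and give no independent support. Counts called in each list stand beside 25.6% higher and 22.3% lower among all tested genes. In the list of the uterine stroma axis of progesterone, hedgehog and fibroblast growth factor genes, 11 of 14 tested were called higher and 1 lower, with a median log2 difference of 1.07 against 0.04 over all tested genes. Pgr, the progesterone receptor gene, rose from 117.5 and 115.4 in wild type to 927.7, 1372 and 1286.3 in null ovaries (log2 difference 3.05, SE 0.20, adjusted p = 1.08e-05). Fgf1 rose by 2.40 (SE 0.14, adjusted p = 7.43e-06), the estrogen receptor gene Esr1 by 1.64 (SE 0.14, adjusted p = 3.6e-05) and the epithelial mucin gene Muc1 by 2.55 (SE 0.26, adjusted p = 9.4e-05). The wild type signals of Pgr and Muc1 (29.1 and 50) were below the brightness cutoff. Both genes passed the filter through the null arrays, so the sizes of their differences depend on the added constant. For the same reason their adjusted p-values are descriptions and give no independent support. Ptch1, the hedgehog receptor and a target of the pathway, was the gene that fell, by 0.78 (SE 0.13, adjusted p = 0.00111). It is named after its value was seen, and without null replicate 3 the genes lower numbered 2. Of the 23 listed genes 20 were measured, and 6, among them Ihh (38.0 and 52.3 mean signal in null and wild type ovaries), Gli1 and Fgf18, were too dim to be tested.

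The list of tract mesenchyme patterning and stroma had the largest median of the 6 lists. Of 19 tested, 15 were called higher and 2 lower, with a median of 1.73. Sfrp2, a secreted WNT modulator, rose by 2.83 (SE 0.14, adjusted p = 3.88e-06), and the homeobox genes Hoxa9, Hoxa10 and Hoxa11, which pattern the tract along its length, rose by 2.93 (SE 0.16, adjusted p = 5.94e-06), 3.89 (SE 0.23, adjusted p = 6.2e-06) and 3.77 (SE 0.24, adjusted p = 8.82e-06). Hoxa11 had signals of 48 on each wild type array and of 701.4 to 1101.6 on the null arrays. Hoxa10 had 45 and 66.8 on the wild type arrays. Both genes were below the brightness cutoff there and passed the filter through the null arrays, so the sizes of their differences depend on the added constant. Their adjusted p-values too are descriptions and give no independent support. The genes that fell, named after their values were seen, were Amhr2, the receptor gene for anti-Müllerian hormone and also in the pregranulosa list (-0.56, adjusted p = 0.00452), and Lef1 (-0.52, adjusted p = 0.0373). The call of Amhr2 was lost with probe sets averaged, and that of Lef1 without null replicate 2 or 3 or either wild type replicate, with the deposited scaling and without the brightness filter. Hoxd11, too dim on average to be tested, had mean signals of 352.3 in null and 15.4 in wild type ovaries.

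Genes that pair with, oppose or resemble HAND2 and TWIST1 were partly higher. Of 9 tested, 4 were called higher and none lower, and the median of 0.08 was close to that of all genes and stood at -0.15 with arrays centred on their medians. Twist2, the paralogue of Twist1, rose by 1.68 (SE 0.16, adjusted p = 5.81e-05), the inhibitor gene Id4 by 1.51 (SE 0.13, adjusted p = 3.24e-05), Tcf4, whose product dimerises with tissue-specific helix-loop-helix factors, by 1.23 (SE 0.10, adjusted p = 3.42e-05) and Id3 by 0.63 (SE 0.12, adjusted p = 0.00294). The call of Id3 was lost after median centring. The other dimer partners Tcf3 and Tcf12 had log2 differences of 0.08 and -0.06, and Hand1 was dim, at mean signals of 20.1 in null and 46.5 in wild type ovaries.

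In the BMP list, 7 of 17 tested were called higher and 1 lower (median 0.30), and 4 were higher without wild type replicate 2 or with arrays centred on their medians. Smad6, an inhibitory SMAD gene induced by the pathway, rose by 1.49 (SE 0.17, adjusted p = 0.000157), and the signal transducer genes Smad5 and Smad1 rose by 0.98 (SE 0.13, adjusted p = 0.00040) and 0.78 (SE 0.12, adjusted p = 0.000973). Fst, which encodes the activin antagonist follistatin and is also a marker of pregranulosa cells, fell by 1.17 (SE 0.14, adjusted p = 0.000203). Bmp2 rose by 1.08 (SE 0.24, adjusted p = 0.00572), while Bmp4 and Bmp7 had log2 differences of 0.28 and -0.11 and did not pass. The call of Bmp2 was lost without wild type replicate 2. These last 3 ligand genes are named after their values were seen.

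Relatives of the T-box, MSX, NR2F and dopamine beta-hydroxylase families were mostly below the cutoff, with 5 of 24 measured genes tested. Of these, 3 were called higher and none lower (median 0.40), and 1 was higher without wild type replicate 3 or with arrays centred on their medians. Nr2f1, the paralogue of Nr2f2, had signals of 1773.8, 995.4 and 1296.2 in null against 285.9 and 280.7 in wild type ovaries and rose by 2.12 (SE 0.22, adjusted p = 0.000115). Nr2c2 and Nr2f6 rose by 0.40 (adjusted p = 0.019) and 0.81 (adjusted p = 0.0367), and both calls were lost without wild type replicate 3, with probe sets averaged and with arrays centred on their medians. Without null replicate 3 or wild type replicate 2 that of Nr2c2 was lost, and without the brightness filter or a variance trend that of Nr2f6. Nr2c1 had 0.20 and did not pass. Tbx18 was dim, with mean signals of 205 in null and 66.2 in wild type ovaries, and Dbh, the relative of Moxd1, had 52.8 and 71.1.

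Genes of epithelial-mesenchymal transition and reported TBX2 and TBX3 targets were called higher in 7 of 11 cases and lower in 1, with a median of 0.59. After median centring 4 were higher, and Zeb1, Snai2 and Cdh1 lost their calls. Fn1, the fibronectin gene, rose by 2.52 (SE 0.13, adjusted p = 3.88e-06), the mesenchymal homeobox gene Prrx1 by 1.90 (SE 0.14, adjusted p = 1.69e-05) and Zeb1, a repressor of epithelial genes, by 0.59 (SE 0.12, adjusted p = 0.00294). Cdkn1a, a cell cycle inhibitor gene that TBX2 and TBX3 are known to repress, rose by 1.17 (SE 0.24, adjusted p = 0.00344). The cadherin genes, named after their values were seen, went opposite ways, with Cdh1 at 0.89 (adjusted p = 0.0194) and Cdh2 at -0.52 (adjusted p = 0.0378). The call of Cdh1 was also lost without null replicate 2 or either wild type replicate. That of Cdh2 was lost without null replicate 1 or 2 or either wild type replicate, without the brightness filter and without a variance trend.

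**Figure D3:**
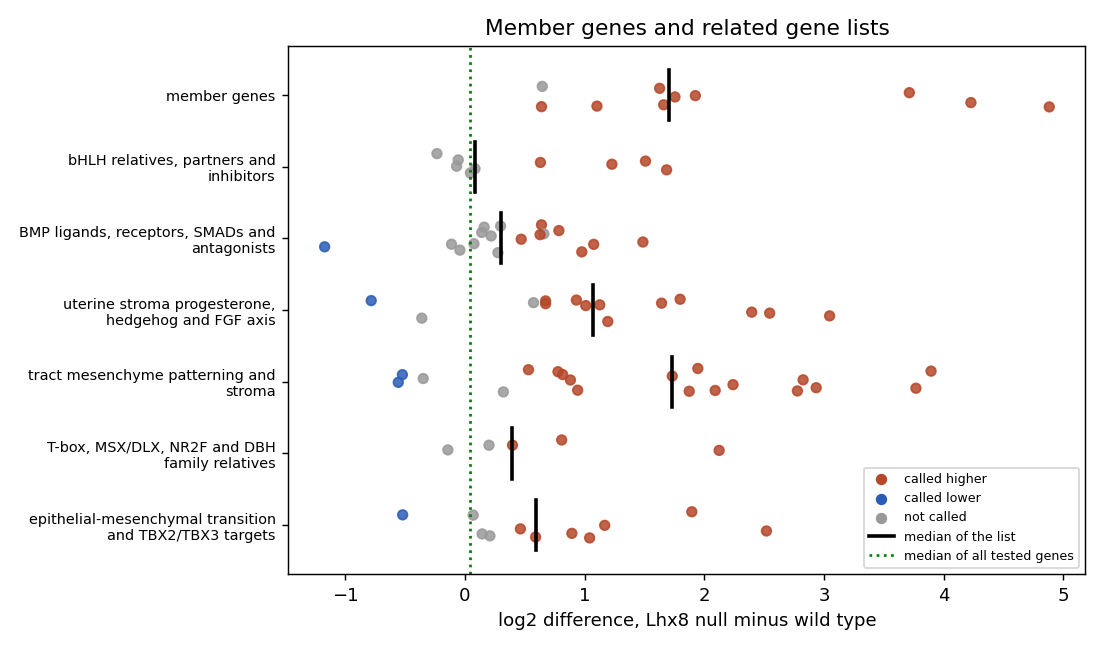
Log2 differences, Lhx8 null minus wild type, of the 10 member genes and of the tested genes of the 6 related lists. Each point is a gene, coloured by its call in the fit across all genes, black bars are list medians and the dotted line is the median of all tested genes, 0.04. The tract mesenchyme list has its median at 1.73 and the helix-loop-helix list at 0.08.

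Markers of several cell types moved with the members. Counts called in each marker list stand beside 25.6% higher and 22.3% lower among all tested genes. Summed over their lists, germ cell markers had signals of 7724 to 12339 on null and 68363 to 69333 on wild type arrays, with 8 of 9 tested genes lower, Dppa3 and Sycp3 at the smallest p, and none higher. Pregranulosa markers summed to 19345 to 22285 and 29729 to 32747, with 7 of 10 lower, among them Irx3 and Fst, and 1, Lgr5, higher. Foxl2 and Ddx4, which define pregranulosa and germ cells, had mean signals of 1941 and 486 in null and 5075 and 3214 in wild type ovaries, above the cutoff in both groups. Markers of the tract and mesonephric epithelium summed to 22117 to 26025 on null and 4185 to 4749 on wild type arrays, 9 of 10 tested were higher, led by Wfdc2 and Ovgp1, and none were lower. Fibroblast and mesenchyme markers summed to 130038 to 149615 and 56696 to 64373, with all 10 higher, among them Dpt and Thy1.

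The remaining marker lists had higher sums on null arrays as well, but not in every member. Smooth muscle markers summed to 30960 to 41180 on null and 9731 to 11546 on wild type arrays (9 of 9 tested higher, with Tagln and Synpo2 at the smallest p). Surface mesothelium markers summed to 27938 to 31013 and 12076 to 12184 (8 of 9 higher, among them Msln and Upk1b), and endothelial markers to 7878 to 8938 and 3138 to 3956 (6 of 8 higher, among them Sox17 and Plvap). Skeletal muscle markers summed to 1436 to 2936 and 382 to 430, where 3 of 3 tested were higher, Acta1 and Des, the latter also a smooth muscle marker, at the smallest p, and the defining genes Myod1 and Myog had mean signals of 23.8 and 8.70 in null and 20.6 and 39.2 in wild type ovaries. In the list of sympathetic neurons and chromaffin cells, where Hand2 is also expressed, sums were 1820 to 2063 on null and 1214 to 1301 on wild type arrays. Stmn2 was the member bright enough to be tested and was called higher, with mean signals of 1587 in null and 128 in wild type ovaries, which make up most of the null sum. Of the other measured members, which were not tested, Th, Gata3, Chga and Dbh went the other way. Th, which encodes the enzyme that starts catecholamine synthesis, had 41.6, 22.7 and 32.2 in null and 869.1 and 821.1 in wild type ovaries. Gata3 had mean signals of 15.9 in null and 76.3 in wild type ovaries, Chga 31.0 and 69.2, and Dbh 52.8 and 71.1. Phox2a, with 47.9 and 41.1, and Prph, with 169 and 26.6, were higher in null ovaries. These genes were named after their values were seen. Th was above the cutoff on both wild type arrays and was left out of the fit through its mean over all arrays. No measured marker was at 0 on average in either group, but signals such as 4.1 for Lhx1 in wild type ovaries do not show expression. Several named markers, among them Wfdc2, Ovgp1, Thy1, Synpo2 and Plvap, had mean wild type signals below the cutoff and passed the filter through the null arrays. In RNA of whole ovaries more cells of a type and more RNA per cell cannot be told apart, and the part of these tissues in the differences of the members was not tested.

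**Figure D4:**
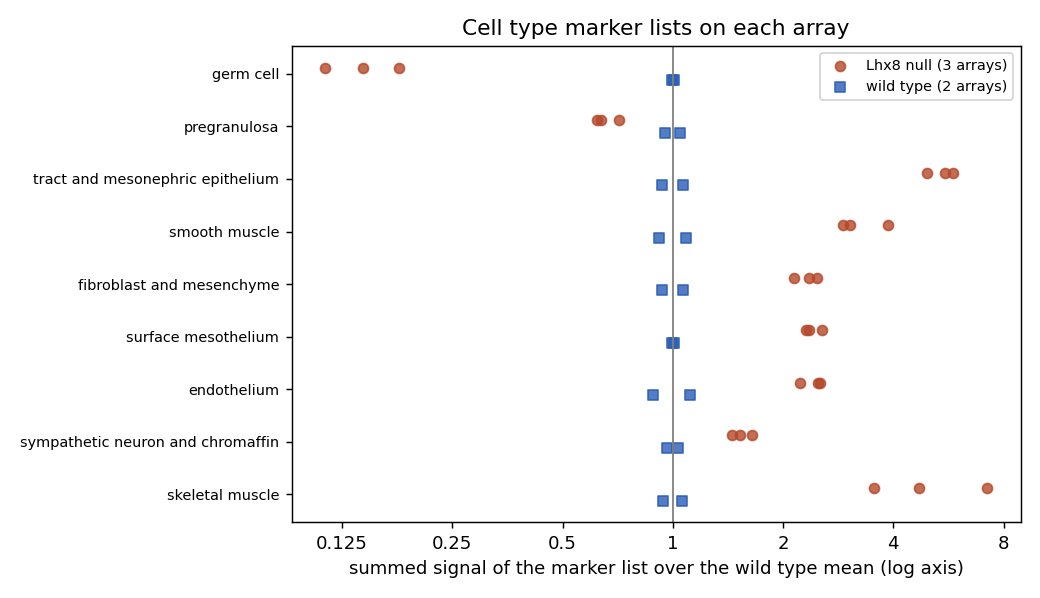
Summed deposited signal of each cell type marker list on each array, divided by the mean of the wild type arrays, on a log axis. Circles are the 3 Lhx8 null arrays and squares the 2 wild type arrays. Germ cell and pregranulosa lists lie below 1 on the null arrays and the other 7 lists above it, with the tract and mesonephric epithelium at 5.44 times the wild type sum on average.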

How the data were processed

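RNA of 3 Lhx8 null and 2 wild type pools was measured on 1 array each. The authors deposited linear intensities for every probe set, with a trimmed mean of 500 on every array. GCOS is named for wild type arrays in the submitters' processing notes, and the software for null arrays is not given in the sources used here. Controls (64 of 45101 probe sets) were left out, log2(signal + 16) was taken, and arrays were quantile normalised (limma 3.58.1, R 4.3.3). Symbols came from the platform annotation, where 34945 probe sets had 1 symbol, 932 several and 9160 none. The IDs of 34741 were found in the GRCm38.p6 table, which changed 0 symbols. Each gene was represented by its brightest probe set, and the dimmest 40% of 18193 genes were left out. The filter used the mean over all arrays, so a gene dim in 1 group could pass through the other. The gene fit used lmFit and eBayes with a trend (two-sided, Benjamini-Hochberg over 10916 genes, threshold 0.05). A separate fit without a filter over 34945 probe sets gave the members' differences and SEs. Only the gene fit was tested on simulated data, in which far fewer genes were changed than were called here. Normalisation, the choice of probe set and the filter were not tested in that way.

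The members and gene lists were chosen with earlier results of these data known. Genes were named by rule: every member probe set, Lhx8, the 5 genes nearest to Hand2 and to Osr2, the 4 of smallest p in each related list and up to 2 in each marker list. Genes named beyond it were chosen after their values were seen. Samples of a group were pools, and p-values set the group difference against the spread between pools, moderated across genes. Promoter windows were checked for strand: 1493 of 1493 overlapping windows of opposite strands were reverse complements. Alternatives covered scaling, added constant, filter, probe set choice, variance trend, replicate block and each array left out. Figures used matplotlib 3.10.9 in Python 3.11.15.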

Additional observations from a re-analysis of the deposited data

How the results depend on the processing

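All 130 member differences kept their direction under the 13 alternatives, and 15 moved by more than the larger of the SDs between replicates. The members called higher numbered 10 with the deposited scaling, where Osr1 was called, and 8 with arrays centred on their medians, without a brightness filter or with probe sets averaged. With the replicate number as a block (replicate block), 3068 genes were higher and 2583 lower and 9 members were higher; the same-numbered arrays correlated at -0.134 and 0.101 across genes, and nothing in the labels pairs them. With arrays centred on their medians, 1720 genes were higher, 4 BMP genes higher, 1 T-box, MSX, NR2F and DBH relative higher, 4 genes of the transition list higher and 2 of the uterine axis lower, and the median of the helix-loop-helix list was -0.15 (-0.041 to 0.33 with an array left out, lowest without wild type replicate 3). With the deposited scaling, 2 uterine axis genes and 1 tract mesenchyme gene were lower. Without the brightness filter 1 tract mesenchyme gene and 2 family relatives were lower, and the median of the relatives was -0.18 with the dim genes added. With probe sets averaged, 2 BMP genes, 2 uterine axis genes and 1 tract mesenchyme gene were lower, 1 relative was higher and Bmpr2 stood at -0.51. Without a variance trend 0 transition genes were lower. Leaving out each array in turn gave 1846 to 2916 genes higher and 1543 to 2622 lower, both lowest without wild type replicate 3. It gave 4 to 8 BMP genes higher, 1 to 3 relatives higher, and 0 to 1 transition, 1 to 2 tract mesenchyme and 1 to 2 uterine axis genes lower. Of 961 values of the 75 related genes tested, 882 kept their side of the threshold, 59 lost and 19 gained a call. A further 1, Bmpr2, reversed with a call in 1 of the 2 fits. Changes of sign between uncalled values were counted as kept, as for Tcf12 (-0.056, and 0.045 with the deposited scaling). The cause of these moves was not tested. The number of arrays limits precision, and dim probe sets give no reliable size of change.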
